A study of Drosophila melanogaster with 24 samples.

Results

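Single heads of virgin male fruit flies (Drosophila melanogaster) that had been treated alike did not all hold the same RNAs, and the 150 genes described here are those whose level differed most from male to male within a treatment. They were taken from 7921 genes with a mean of at least 5 RPKM (reads scaled by gene length and by library size) over all flies, out of 17559 genes in the deposited table. For each gene log2(RPKM + 1) was centred on the mean of its group, and the pooled within-group standard deviation (SD) over 20 residual degrees of freedom was ranked. Genes were thus chosen by their spread within groups. The SD, the rank and everything that follows from the clustering of these genes are therefore descriptions and carry no test. Group means were not used by the ranking, and differences between them were tested. The within-group spread that ranked the genes also enters the error term of these tests, so these genes pass less readily by construction.

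The flies came from the male courtship suppression paradigm, in which a virgin male is turned down by a mated female and then courts less. In the 1X trained group a male spent 1 session of 2 h with such an unreceptive female, and in the 3X trained group 3 sessions of 2 h with 30 min between them. The 1X mock and 3X mock males went through the same handling in tubes without a female. Each of the 4 groups had 6 flies, and where values are listed by group the order is 1X mock, 1X trained, 3X mock, 3X trained. All were young adults housed singly since shortly after eclosion, kept at 25 °C in a 12:12 light and dark cycle, and collected 1 h after the last session; the strain is not given in the sources used here. Heads were taken off by vortexing or cut off on dry ice, and which was done for a given fly is not recorded. The poly(A) libraries (SMART-Seq v4) did not keep the strand, so reads of overlapping genes cannot be told apart.

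A fly head holds the brain and the eyes, and around them a layer of fat body, which stores protein, fat and sugar and secretes immune peptides, as well as cuticle, muscle, blood cells and the mouthparts. Antimicrobial peptides are made by the fat body when the Toll or Imd pathway senses microbes. Cytochromes P450 and UDP-glycosyltransferases modify plant and other foreign chemicals, hormones and odours, and odorant-binding proteins are secreted around the sensory neurons of smell and taste hairs. In a whole head, fewer cells of a type and less RNA per cell cannot be told apart.

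The recovered reads per library, summed over genes whose values gave whole reads, ran from 17140748 (1X trained replicate 4) to 37763748 (1X mock replicate 6). The share of genes listed at 0 was 13.9% in 3X mock replicate 6 and 18.4% to 22.2% in the other flies. Summed markers of neurons (275 to 336 RPKM) and photoreceptors (21866 to 26526 RPKM) differed little between flies, and both tissues belong to a head. Fat body markers summed to 624 RPKM in 1X trained replicate 1 and to 1887 to 10170 RPKM in the other flies, and the same fly was highest in gut markers (322 RPKM, the next fly 142 RPKM). Testis markers were at 47.6 RPKM in 3X mock replicate 6 and at most 1.07 RPKM elsewhere, and the accessory gland marker Acp26Aa was under 0.1 RPKM in every fly. Glia markers were lowest in 1X mock replicate 4, at 865 RPKM against 929 to 1204 RPKM. 1X mock replicate 4 and 1X trained replicate 1 stand apart in many of the genes below, and values that rest on them are given with and without them.

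The pooled SD of the 150 genes ran from 0.58 to 2.82 on the log2 scale with a median of 0.79. Over all 7921 genes the median was 0.11 and the 90th percentile was 0.26. For the median gene of the 150 the highest fly held 13.9 times the RPKM of the lowest. They were not a set of scarce genes, since their median mean level was 27.7 RPKM, against 18.0 RPKM for all 7921. Just inside the threshold were the amylase gene Amy-p (SD 0.5805) and asRNA:CR43936 (0.5796), and just outside it mt:tRNA:Ser-TGA (0.5767) and CG42369 (0.5762). The spread was present in each group, with a median SD by group of 0.64, 0.82, 0.59 and 0.77, against 0.092 to 0.113 for all genes. Between 98 and 103 of the 150 were also among the 150 most variable genes of each single group.

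By annotation 126 of the 150 were protein coding, 13 were other noncoding RNAs (antisense, long noncoding, hairpin and small ones), 5 were tRNAs and 4 were snoRNAs, while 2 IDs had no entry in the gene table. The Y chromosome gave 4 of its 6 expressed genes and the mitochondrial genome 7 of 31. Chromosome 2R gave 47 of 1577 genes (2.98%), the X 13 of 1298 (1.00%) and chromosome 4 none of 86, beside 1.89% of all genes. Of the 150, 60 overlapped another gene of the table and 29 overlapped another of the 150, which leaves fewer independent signals than genes. The 15 overlapping pairs had a median correlation of 0.997 across the 24 flies, and 2 of them (Pepck1 with CG45087 and IM18 with CG10332) held identical values.

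Which head tissues and functions varied is shown by lists of marker and pathway genes. Of 20 antimicrobial peptide genes in the table only 5 reached the mean of 5 RPKM. Of these 5, 4 were among the 150 (Def, Mtk, AttC and Drsl4), and the median SD of the 5 was 0.99. A gene that is high in a few flies can reach this minimum through them, as Mtk did through trained flies. The share and the median of this list therefore depend on the minimum. The fat body list gave 10 of 32 genes (Lsp2, tobi, to, Lsp1beta, bmm, Lsp1alpha, Obp99b, Pepck1, fit and Sodh1, median SD 0.30) and cytochromes P450 gave 10 of 52 (0.29). Odorant-binding proteins gave 3 of 22. The neuron list gave 0 of 13 genes, and its median SD of 0.07 was below the 0.11 of all genes. Other lists with no gene among the 150 were glia (0 of 12, median SD 0.15), neuropeptides and hormones (0 of 32, 0.19), activity-induced genes (0 of 14, 0.16) and heat shock proteins (0 of 11, 0.15). Their medians lay above that of all genes, and with 1.89% of all genes taken, 0 of lists this short is not a result about them. Of 31 photoreceptor genes 1 was among the 150, ninaD, and the list's median SD was 0.11. Single genes came from the muscle list (Act79B, 1 of 22), hemocytes (PPO2, 1 of 12), the clock list (to, 1 of 14), Bomanins (BomBc1, 1 of 15), Turandot stress peptides (TotC, 1 of 7), cuticle (Cpr49Ag, 1 of 17), lipid genes (CG5966, 1 of 17) and metal handling (MtnD, 1 of 8). The lists and the 150 genes were both drawn up with results of these data known, so the shares are a description.

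**Figure D1:**
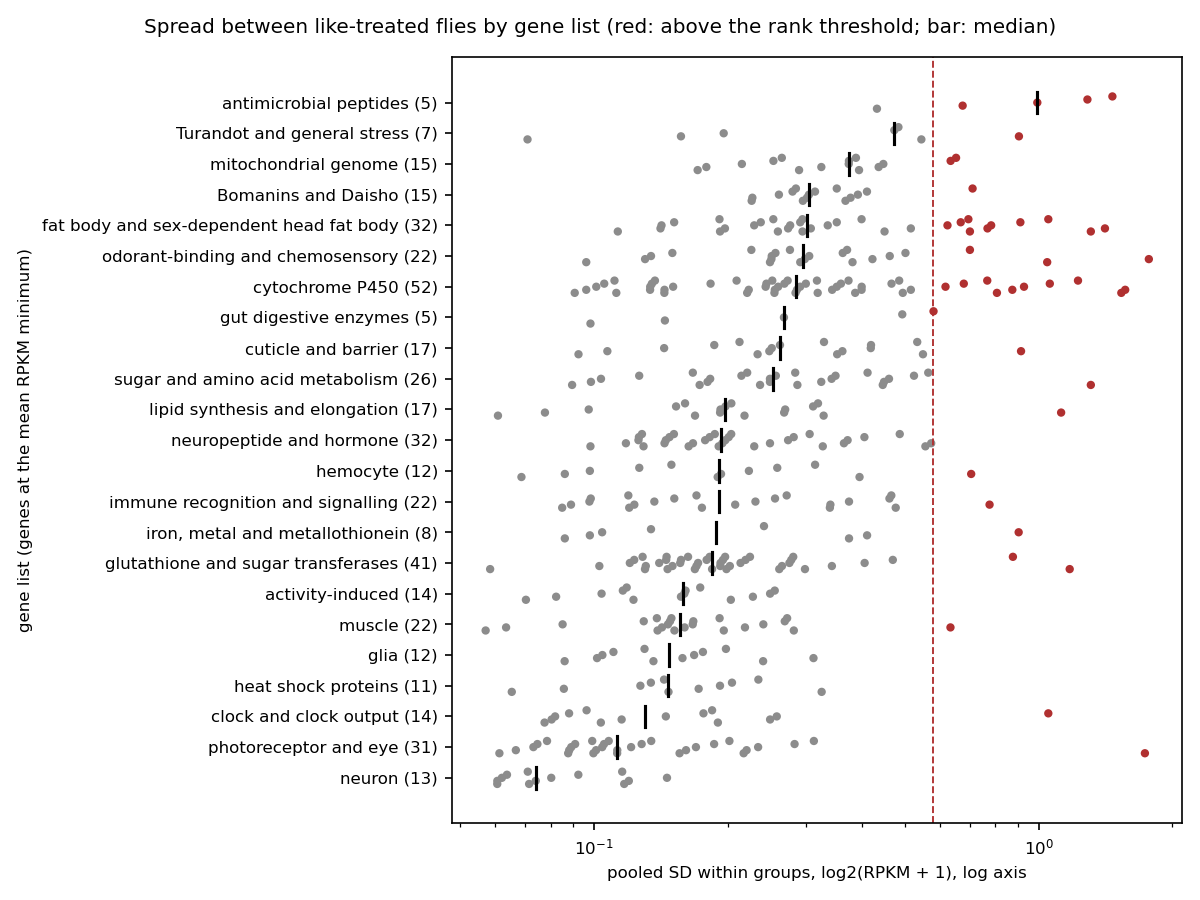
Pooled within-group SD of log2(RPKM + 1) (horizontal log axis) for the genes of each list with a mean of at least 5 RPKM (vertical axis, number of genes in brackets); each point is a gene, red points are among the 150, the black bar is the list's median and the dashed line is the rank threshold. Neuron genes cluster near a median of 0.07. Antimicrobial peptides, of which 5 of 20 reached the minimum, have the highest median, 0.99.

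The spread took 3 forms. In 36 of the 150 genes a single fly held at least 50% of the within-group sum of squares, and 5 flies stood behind all 36. 1X mock replicate 4 was that fly for 20 genes, low in each, and 1X trained replicate 1 for 13, low in 10 and high in 3. In 11 genes the flies fell on separate levels, with a gap of at least 1 log2 unit and at least 4 flies on either side. The others were graded or were shared between a few flies. As a graded example, the defensin gene Def ran from 1.04 to 64.3 RPKM, with group medians of 5.34, 11.8, 16.0 and 13.5 RPKM, so that all 4 groups overlapped.

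Genes on separate levels included the first of the ranking. CG11313, which encodes a serine protease of the clip-domain family (3R:30729837-30731165 on dm6), had the largest SD of all, 2.82. It was at 0.0734 to 0.402 RPKM in 10 flies and at 24.5 to 120 RPKM in the other 14, with no fly between. The upper level held 3 flies of each 1X group and 4 flies of each 3X group, so both levels occurred in every treatment.

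The carotenoid receptor gene ninaD (2L:18081628-18083608), needed in flies for making the visual pigment, was at 0.784 to 2.62 RPKM in 11 flies and at 14.3 to 37.8 RPKM in 13. From 2 to 4 flies of each group were on the upper level. Its level followed that of squ, a gene known from the germline piRNA pathway, which lies 1400 kb away on 2L (r = 0.93 over 24 flies). The other 30 genes of the photoreceptor list stayed under the rank threshold.

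Cyp6a17 (2R:14873953-14875739), a P450 known for its part in temperature preference, was at 2.16 to 4.87 RPKM in 8 flies and at 26.6 to 74.7 RPKM in 16. Within the upper range 13 flies lay at 26.6 to 38.3 RPKM and 3 flies (1X mock replicate 1, 1X trained replicate 3 and 3X trained replicate 1) at 60.7 to 74.7 RPKM. Its neighbour Cyp6a23, which starts 0.09 kb away, ran the other way. Cyp6a23 was at 48.6 to 101 RPKM in the 8 low flies, at 34.4 to 58.6 RPKM in the middle 13 and at 11.2 to 17.9 RPKM in the 3 high flies (r = -0.76). The 2 genes are close paralogues, so how reads were split between them is uncertain.

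A further P450, Cyp309a2, was at 2.09 to 9.88 RPKM in 9 flies and 25.8 to 78.3 RPKM in 15. The UDP-glycosyltransferase gene Ugt35C1 was high in only 5 of the 24 flies (98.6 to 112 RPKM) and at 5.79 to 32.6 RPKM in the rest. CG31205 was at 16.8 to 38.1 RPKM in 8 flies and 84.1 to 225 RPKM in 16, and CG34291 at 1.32 to 3.35 RPKM in 13 and 9.02 to 14.3 RPKM in 11. In these genes too each group had flies on the lower and on the upper level, with the exception that all 6 3X trained flies were on the upper level of CG31205. CG31205 did not pass the test after 3X training (log2 change 0.57 ± 0.61 SE, limma adjusted p = 0.634).

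The lipase gene CG5966 (X:5988791-5992640) was at 3.32 to 8.35 RPKM in 6 flies and at 19.8 to 81.0 RPKM in 18. All 6 low flies were trained, 4 of the 1X and 2 of the 3X group. The change of the mean did not pass the test after 1X training (log2 change -1.75 ± 0.61 SE, limma adjusted p = 0.096) or after 3X training (-0.77 ± 0.61, adjusted p = 0.495). It varied together with bmm (r = 0.79), which encodes the brummer triglyceride lipase that releases stored fat. The group medians of bmm were 47.0, 18.9, 55.5 and 28.5 RPKM, with a limma adjusted p of 0.066 after 1X and 0.205 after 3X training.

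The levels of these 8 genes were not set by the same flies. Over their 28 pairs the correlation ran from -0.45 to 0.52 with a median of -0.11, and none reached 0.6. All 11 genes with separate levels stayed among the 150 when both 1X mock replicate 4 and 1X trained replicate 1 were left out.

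**Figure D2:**
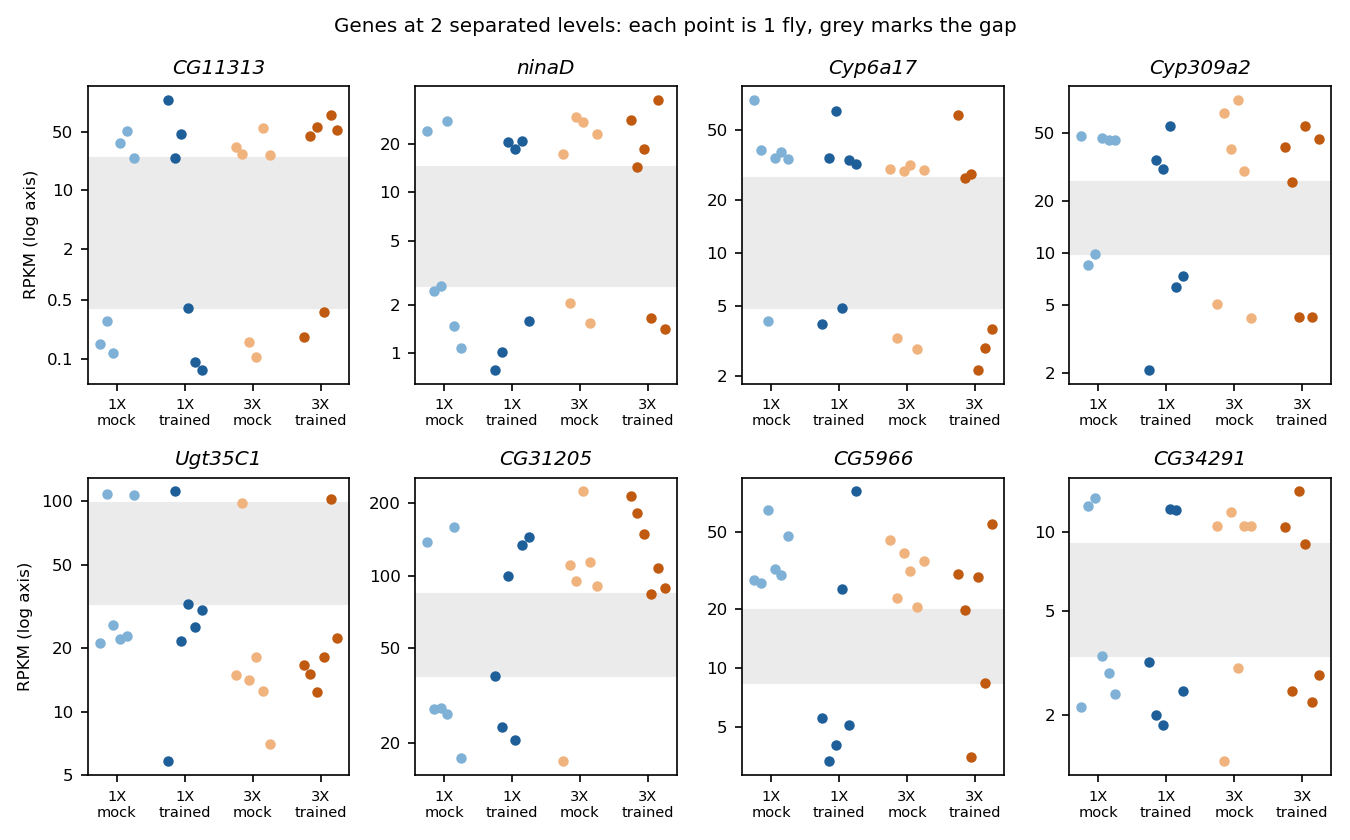
RPKM (log axis) of the 8 genes on separate levels that belong to no module, 1 point per fly, by group; the grey band is the largest gap between neighbouring flies. For CG11313 the band spans 0.402 to 24.5 RPKM, and flies of every group lie on both sides of it.

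The other 3 genes with separate levels belonged to a group of 6 genes that rose and fell together, called module 6 here. Modules were read from a tree of the 150 genes (average linkage, distance 1 minus the Pearson r of group-centred values over 24 flies, tree split at 0.4). There were 8 modules of at least 5 genes, holding 75 genes. A further 48 genes fell into 19 clusters of 2 to 4 and 27 stood alone. All 24 flies enter each r, and genes of a fly share its library and depth.

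Module 6 consisted of CG14445 on the X, CG13133 and CG13950 on 2L, CG43149 and CG14142 on 3L and Naam on 3R, with a median r of 0.98. Naam encodes a nicotinamidase of the NAD salvage pathway. The same 6 flies were low in all 6 genes (1X mock replicate 4, 1X trained replicate 4, 3X mock replicates 3 and 4, and 3X trained replicates 1 and 5), and the same 4 flies were in the middle (1X mock replicate 2, 1X trained replicates 1 and 2, and 3X mock replicate 5). The levels did not overlap in any of the 6.

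CG13133 was at 0.0709 to 0.739 RPKM in the low flies, 3.19 to 4.79 RPKM in the middle ones and 7.14 to 10.5 RPKM in the other 14. Naam was at 2.28 to 3.88, 8.76 to 9.32 and 12.2 to 16.8 RPKM in the same flies. CG14142 was at 0.575 to 1.55, 3.27 to 4.91 and 6.40 to 9.93 RPKM. CG14445, CG43149 and CG13950 followed the same order, and the narrowest distance was in CG43149, whose middle flies ended at 4.67 RPKM and whose high flies began at 4.76 RPKM. The module kept all 6 genes in 1 cluster, and all 6 among the 150, without 1X mock replicate 4 and 1X trained replicate 1. No difference between group means passed the test for CG13133: the log2 change was -0.14 ± 0.73 SE after 1X training and 0.02 ± 0.73 after 3X training (limma adjusted p 0.946 and 0.992).

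**Figure D3:**
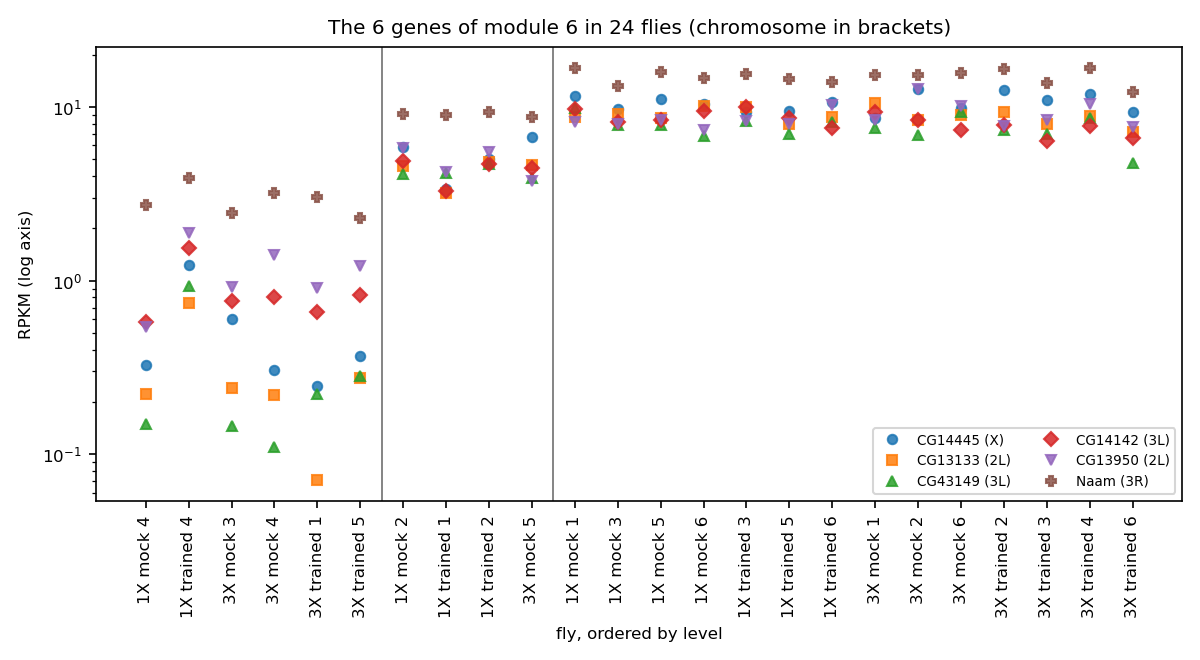
RPKM (log axis) of the 6 genes of module 6 in the 24 flies, ordered by level, with the chromosome of each gene in brackets. The 6 flies at the low end are low in every gene and 4 flies form a step in the middle before the 14 high flies.

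Module 4 also showed a step. It held CG6912, hpRNA:CR33940, CG32212, l(3)87Df, asRNA:CR45600, CG3984 and CG14191 (median r 0.74), and hpRNA:CR33940 is a hairpin RNA, a class known as a source of small interfering RNAs. The gene l(3)87Df was at 25.5 to 34.0 RPKM in 15 flies and 66.4 to 83.4 RPKM in 9. CG6912 was at 2.43 to 9.42 RPKM in 14 flies and 18.6 to 30.6 RPKM in 10, and the same 9 flies were above both gaps while 1X trained replicate 1 was above that of CG6912 only. The 7 genes stayed in 1 cluster without the pair of flies that stand apart. Among them hpRNA:CR33940 overlaps CG32212, and asRNA:CR45600 overlaps both CG6912 and CG3984, so their reads are not separate.

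Module 7 joined 4 genes of the Y chromosome, Ppr-Y, ORY, kl-5 and CCY, to Pzl on 3R, with a median r of 0.999. In flies the Y genes kl-5 and ORY are known as male fertility factors that act in the testis, and Pzl (Piezo-like) encodes a relative of the Piezo mechanosensitive channel. Pzl spans 709 kb of 3R (2554162 to 3263582). Ppr-Y ran from 164 RPKM in 1X mock replicate 2 to 7301 RPKM in 3X trained replicate 2, and in these same flies all 5 genes had their lowest and highest values.

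By group, Ppr-Y had a lowest, median and highest level of 164, 280 and 471 RPKM in 1X mock flies and of 240, 574 and 860 RPKM after 1X training. In 3X mock flies the values were 397, 689 and 3316 RPKM, and in 3X trained flies 773, 2881 and 7301 RPKM. The ranges of neighbouring groups overlapped. The difference between the mock groups did not pass the test (log2 change 1.77 ± 0.53 SE, limma adjusted p = 0.063), nor did the change after 3X training (1.48 ± 0.53, adjusted p = 0.116) or 1X training (0.82 ± 0.53, adjusted p = 0.406). Pzl moved alike, from 51.3 to 2102 RPKM, with an adjusted p of 0.073 between the mock groups and 0.108 after 3X training.

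The other 2 Y genes with at least 5 RPKM on average were steady, CR40801 at 13.6 to 30.7 RPKM (SD 0.18) and FDY at 4.56 to 8.09 RPKM (0.13). The testis markers were at most 1.07 RPKM in 23 flies, among them the fly with the highest Ppr-Y level, and 47.6 RPKM in 3X mock replicate 6, which had the highest Ppr-Y level of its group. The 5 genes kept a median r of 0.999 without 3X mock replicate 6 (0.9990 against 0.9991 with it).

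Module 3 held 6 mitochondrial transcripts, mt:ND6, mt:ATPase8 and the tRNAs mt:tRNA:Pro-TGG, mt:tRNA:Val-TAC, mt:tRNA:Gly-TCC and mt:tRNA:His-GTG, with smp-30 on 3R and the overlapping pair CG32444 and asRNA:CR45955 on 3L (median r 0.71). The protein products of mt:ND6 and mt:ATPase8 are subunits of complex I and of ATP synthase. By group the level of mt:ND6 was 45.6 to 78.4, 23.9 to 65.4, 17.3 to 73.5 and 19.4 to 93.9 RPKM, so all groups overlapped. Over the 15 listed genes of the mitochondrial genome the median SD was 0.37, and 2 of them are among the 150.

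Flies that were high in module 7 were low in module 3. The mean deviations of the 2 modules had a Pearson r of -0.88 and a Spearman rho of -0.85 over the 24 flies, and r was -0.82 without the 2 flies farthest out, 3X mock replicate 6 and 3X trained replicate 6. Within groups of 6, r was -0.46, -0.62, -0.98 and -0.97 in that order. Summed mitochondrial RPKM on the log2 scale went with module 3 (r = 0.69) and against module 7 (r = -0.65), and the share of genes listed at 0 went against module 7 (r = -0.53). Without 3X mock replicate 6, which had the fewest genes at 0 and the highest module 7 mean, these values were 0.63, -0.55 and -0.29. Module 3 is mostly mitochondrial transcripts, so its r with summed mitochondrial RPKM partly restates the module. That sum also went with module 2 (r = 0.69) and module 8 (0.51) and against module 5 (-0.44). Module 3 in turn had an r of 0.69 with module 8, 0.51 with module 2 and -0.54 with module 4. Recovered reads on the log2 scale had an r of 0.01 with module 3 and 0.07 with module 7. The part that RNA quality or library making has in this was not tested.

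**Figure D4:**
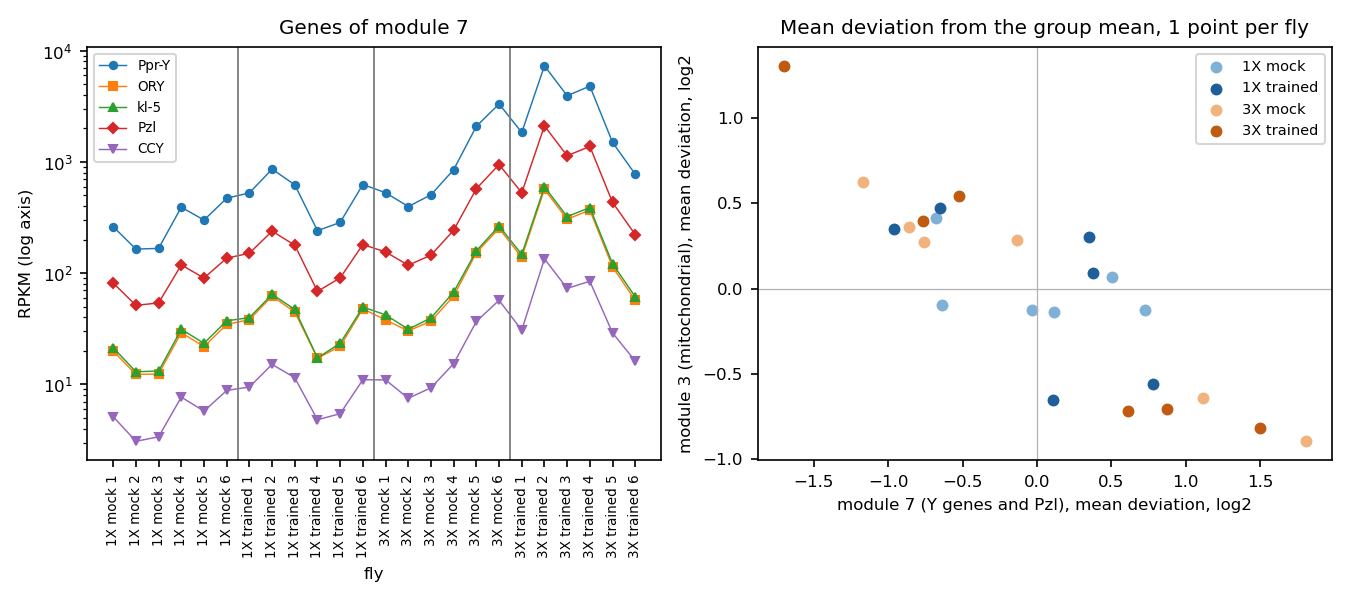
Left, RPKM (log axis) of the 5 genes of module 7 in each fly, with groups separated by vertical lines. Right, mean deviation from the group mean of module 3 (vertical axis, log2 units) against that of module 7 (horizontal axis, log2 units), 1 point per fly and coloured by group; the points fall from upper left to lower right (r = -0.88).

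Modules 1, 2 and 5 rested mainly on 1 fly each. Module 1 was the largest, with 21 genes on 5 chromosome arms, and all 21 were lowest in 1X mock replicate 4, which held on average 70.0% of their within-group sum of squares. Among its genes were 4 for trypsin-like serine proteases (CG32523, CG8329, CG9676 and CG7829), 2 for lectins (CG8343 and CG11211) and 2 for odorant-binding proteins (Obp56g and Obp19b). The gene fry overlaps CG8329, so their reads are not separate. The same holds for CG14277 with CG43057, CG6290 with CG32548 and CG9676 with CG4678.

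Obp56g was at 0.531 RPKM in 1X mock replicate 4, where it gave 10 reads, and at 218 to 694 RPKM in the other 23 flies. CG8329 was at 10.7 RPKM in that fly and at 256 to 2372 RPKM in the others. CG14277 was at 0.127 RPKM there against 33.9 to 145 RPKM. In each of these 3 genes 1X trained replicate 1 was the second lowest fly, at 218, 256 and 33.9 RPKM. Without 1X mock replicate 4 the SD fell from 1.77 to 0.34 for Obp56g and from 1.59 to 0.64 for CG8329, the median r of the module from 0.94 to 0.78, and 3 of the 21 genes stayed among the 150.

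In 1X mock replicate 4 the summed photoreceptor markers (24638 RPKM), neuron markers (332 RPKM) and fat body markers (5310 RPKM) lay inside the range of the other flies, while the glia markers were the lowest of all. Their part in module 1 was not tested. The protease gene CG32523 was lowest in 1X mock replicate 4 (2.57 RPKM) like the others, but it was also low in 3X trained replicate 5 (3.80 RPKM) and 3X mock replicate 2 (5.08 RPKM), and it reached 303 RPKM. It kept an SD of 1.65 without 1X mock replicate 4.

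Of the 15 genes of module 2, 5 are on the fat body list (Lsp2, tobi, Lsp1beta, Lsp1alpha and Pepck1). It held the larval serum protein genes Lsp2, Lsp1alpha and Lsp1beta, which encode storage proteins, the sugar- and insulin-responsive glucosidase gene tobi, Pepck1 of gluconeogenesis, the metallothionein gene MtnD, both Cyp12d1 copies, Drsl4 and 6 others. All 15 genes were lowest in 1X trained replicate 1, and Lsp2 was at 46.8 RPKM there against 1004 to 9020 RPKM in the other flies. The fly held 54.6% of the sum of squares, and without it the median r of the module fell from 0.74 to 0.43 while 8 of the 15 genes stayed among the 150. Fat body markers summed to 624 RPKM in that fly against at least 1887 RPKM elsewhere. Lsp2 is one of these markers, so the sum partly restates the module, while the marker apolpp had an SD of 0.14. A change per cell and a loss of fat body cannot be told apart.

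Lsp2 and tobi also varied among the other flies (r = 0.87 over 24 flies and 0.77 without 1X trained replicate 1). The lowest, median and highest levels of tobi were 344, 503 and 1410 RPKM in 1X mock flies and 12.96, 213 and 950 RPKM after 1X training. They were 361, 592 and 1336 RPKM in 3X mock flies and 48.7, 106 and 388 RPKM after 3X training. The fall of its mean after 3X training did not pass the test (log2 change -2.31 ± 0.71 SE, limma adjusted p = 0.076). The gene rha overlaps tobi and followed it, and its own change is given below.

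Module 5 was high in 1X trained replicate 1. Its 7 genes were Vago, a secreted antiviral protein, the immune-induced gene IM18 with CG10332 at the same place, Srg1, Cyp6d2, CG11425 and the gut amylase gene Amy-p. Vago was at 486 RPKM in that fly and at 16.0 to 37.3 RPKM in the other 23. Without the fly its SD fell from 0.90 to 0.31, the median r of the module fell from 0.72 to 0.38, and none of the 7 genes stayed among the 150. The mean deviations of modules 2 and 5 had an r of -0.78 over 24 flies, with that fly at both ends, and of 0.36 over the other 23.

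**Figure D5:**
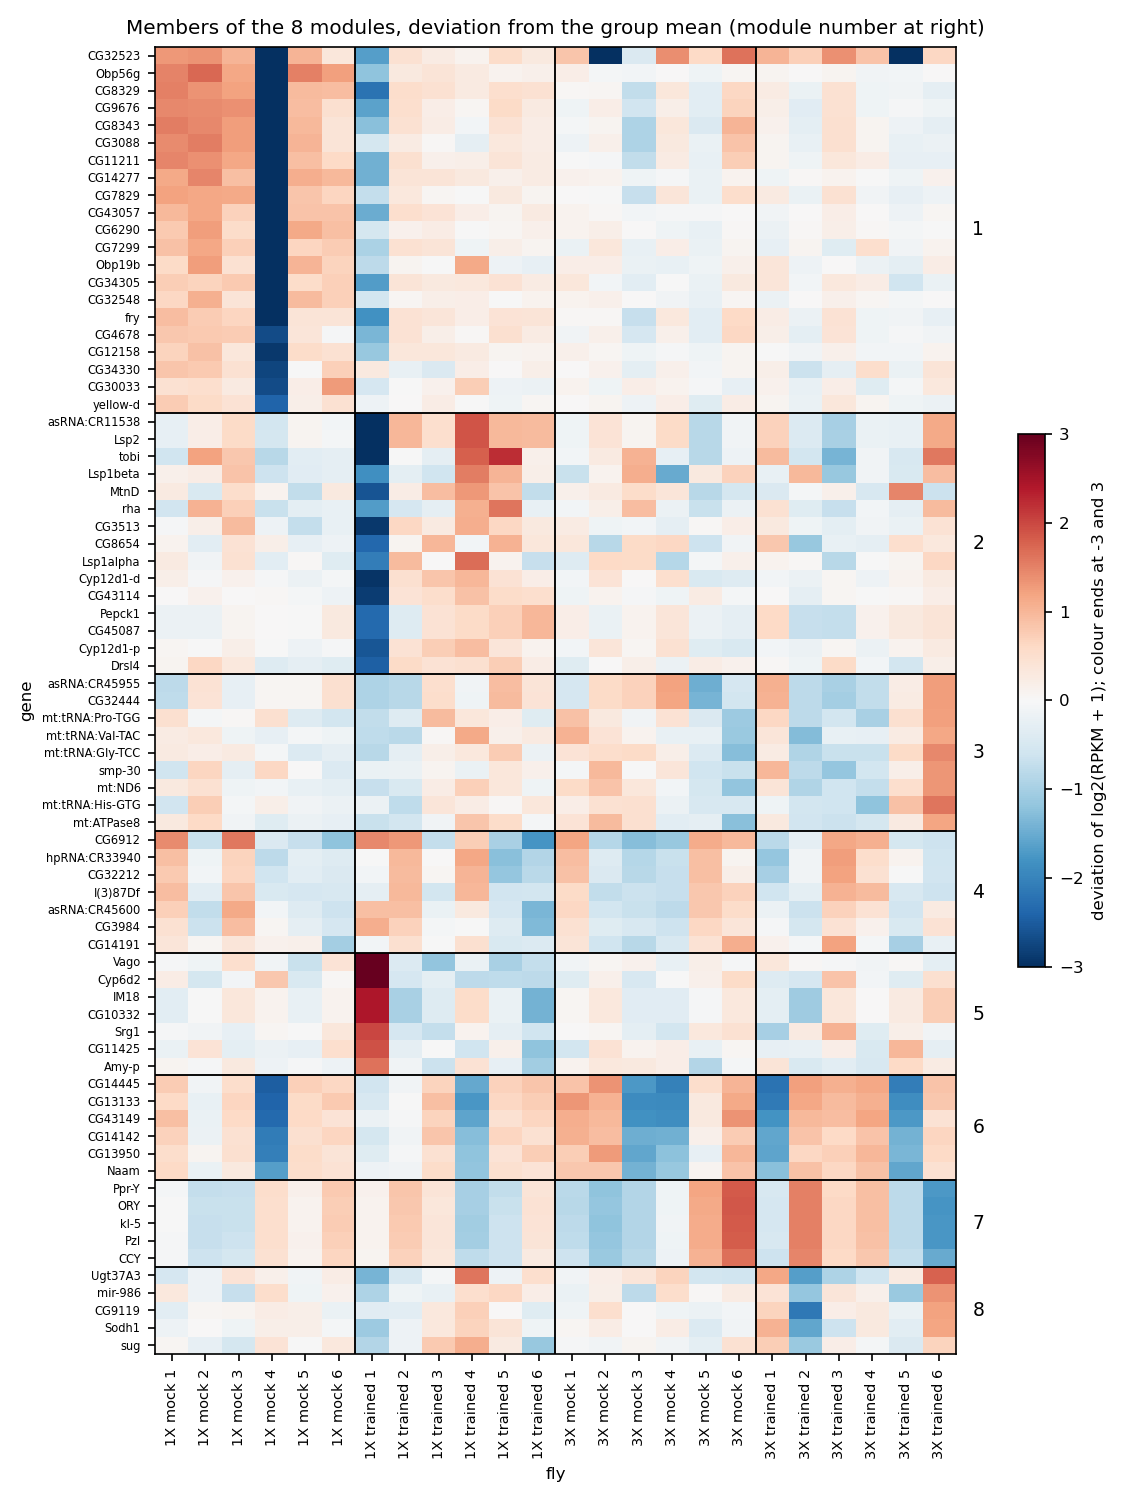
Deviation of log2(RPKM + 1) from the group mean (colour, ending at -3 and 3) for the 75 genes of the 8 modules (vertical axis) in the 24 flies (horizontal axis, groups separated by lines). Module 1 is dark blue in 1X mock replicate 4, and since deviations in a group sum to 0 the other 1X mock flies appear red; modules 2 and 5 are set by 1X trained replicate 1, while modules 4, 6 and 7 differ over many flies.

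Module 8 joined genes of sugar use, the sorbitol dehydrogenase gene Sodh1 and the sugar-responsive transcription factor gene sug (sugarbabe), to Ugt37A3, CG9119 and mir-986 (median r 0.71). Of the 5 genes 4 were lowest in 3X trained replicate 2 and 4 were highest in 3X trained replicate 6. Without both of these flies the median r was 0.51. Only 3 of the 5 genes stayed in 1 cluster without 3X trained replicate 2, 1X trained replicate 4 or 3X mock replicate 1. Sodh1 was at 239 RPKM in 3X trained replicate 2 and at 1614 RPKM in 3X trained replicate 6. In 1X mock flies it stayed within 1083 to 1368 RPKM, and in 1X trained flies within 296 to 998 RPKM. The change after 1X training did not pass the test (log2 change -0.94 ± 0.34 SE, limma adjusted p = 0.110).

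The immune genes among the 150 did not vary as 1 group, though several had their most extreme level in 1X trained replicate 1. Mtk (metchnikowin) and AttC (attacin C), both antimicrobial peptides, varied together (r = 0.91, and 0.82 without 1X trained replicate 1). Mtk was at 139 RPKM in 1X trained replicate 1, 30.4 in 1X trained replicate 4 and 15.6 in 3X trained replicate 4, and AttC had its 3 highest flies in the same order at 141, 47.9 and 46.9 RPKM. Def followed neither (r = -0.16 with Mtk and -0.13 with AttC), and its highest fly was 3X trained replicate 5. In the 12 mock flies Mtk did not exceed 2.24 RPKM. Its change of the mean was 2.13 ± 0.70 SE after 1X and 1.77 ± 0.70 after 3X training on the log2 scale (limma adjusted p 0.078 and 0.145). IM18 and Vago, which like Mtk and AttC were highest in 1X trained replicate 1, had an r of 0.64 and 0.69 with Mtk. Their r was 0.67 and 0.67 with AttC and 0.74 with each other. Drsl4, lowest in that fly, had an r of -0.68 with Mtk and -0.62 with AttC. Without 1X trained replicate 1 these values were 0.22, 0.11, 0.31, 0.12, 0.09, -0.15 and -0.04.

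Drsl4, of the drosomycin family, was in module 2. The crystal cell gene PPO2 (prophenoloxidase 2) varied with the ID FBgn0261362 (r = 0.95), which had no entry in the gene table used. Mtkl, a metchnikowin-like gene, varied with CG42807 and FBgn0010381 (r 0.76 to 0.86). BomBc1 and the stress peptide gene TotC had an r of 0.55 with each other and at most 0.32 with Mtk or AttC.

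Among the remaining graded genes, phu had an SD of 1.76 and ran from 0.670 to 172 RPKM, together with CG10516 and CG8745 (r 0.76 to 0.83). Its group medians were 14.8, 72.0, 5.09 and 23.3 RPKM, and neither training effect passed the test (limma adjusted p 0.556 and 0.280). The P450 genes Cyp6a8 (16.3 to 266 RPKM) and Cyp6a20 varied together (r = 0.65), and Cyp6a2 ran from 10.6 to 78.5 RPKM. The clock-regulated gene to (takeout) ran from 18.5 to 306 RPKM, with a median of 174 RPKM in the 1X mock group and 38.8 RPKM in the 3X mock group (limma adjusted p = 0.193). CG13428 was not graded but rested on 1 fly. It was at 266 RPKM in 1X trained replicate 4, 30.5 RPKM in 3X mock replicate 3, 7.09 RPKM in 3X mock replicate 4 and at most 1.78 RPKM elsewhere. The first of these flies held 56.4% of its within-group sum of squares. Its SD was 1.89 with that fly and 1.10 without it, but without it the mean was under the minimum of 5 RPKM.

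Genes that lie close together were among those with like deviations. Of 43 pairs within 20 kb that do not overlap, 26 (60.5%) had an r of at least 0.6 (15 of 21 mitochondrial and 11 of 22 nuclear pairs), against 5.19% of 2099 pairs farther apart on a chromosome and 4.22% of 9018 pairs on different chromosomes. Pairs share genes, so these shares are given without a test. Examples were Cpr49Ag, a cuticle protein gene, with CG30050 (r = 0.85, 0.431 kb apart), eco with asRNA:CR45822 (r = 0.93, 16.4 kb) and 3 snoRNAs of 2R (r 0.78 to 0.85). Farther apart, Act79B, a muscle actin gene, and CG14567 had an r of 0.85 at a distance of 247 kb.

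Whether the means of these genes also differed between treatments was tested with limma over the 10547 genes that reached 1 RPKM in 6 or more flies, with Benjamini-Hochberg adjustment over all of them. Of the 150 genes 149 were tested, and CG13428 was not. After 1X training 4 of the 149 passed an adjusted p of 0.05 (3 lower and 1 higher in trained flies), beside 4.94% of all genes tested. After 3X training 1 passed, lower in trained flies, beside 2.27% of all genes. Between the mock groups 3 passed (1 higher and 2 lower in 3X mock), beside 4.34% of all genes. The median size of the change was 0.46, 0.25 and 0.44 log2 units in the 149 and 0.08, 0.08 and 0.07 over all genes. Genes chosen for a wide spread have larger differences between means of 6 flies by construction, so nothing is read from this. The same spread enters the error term of each test. A share of passing genes below that of all genes is therefore not a result about them, with or without adjustment. Without adjustment 25, 16 and 22 of the 149 (16.8%, 10.7% and 14.8%) had p below 0.05, beside 20.8%, 21.2% and 16.9% of all genes.

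After 1X training the gluconeogenesis gene Pepck1 fell. It was at 517, 589 and 717 RPKM (lowest, median and highest) in 1X mock flies and at 32.9, 240 and 340 RPKM after training. The log2 change was -1.79 ± 0.38 SE (limma adjusted p = 0.00768), and without 1X mock replicate 4 and 1X trained replicate 1 it was -1.33 (adjusted p = 0.00393). CG45087 lies within the same reads and is no further evidence. Pepck1 is on the fat body list, and the summed fat body markers were 5310 to 10170 RPKM in 1X mock and 624 to 8458 RPKM in 1X trained flies, 5 of which lay below every 1X mock fly. Of these 4 markers 3 (Lsp2, fit and to) were themselves chosen here for their spread. The part of the fat body markers in the fall was not tested. In 3X flies the groups overlapped, at 443 to 680 RPKM in mock and 253 to 629 RPKM in trained flies.

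The calcium-binding protein gene smp-30 also fell after 1X training. Its lowest, median and highest levels were 84.5, 118 and 200 RPKM in 1X mock flies and 32.8, 36.9 and 48.6 RPKM after training (log2 change -1.73 ± 0.36 SE, limma adjusted p = 0.00669). Pepck1 and smp-30 passed whichever fly was left out. Mtkl rose, with 6.74, 19.5 and 32.2 RPKM in 1X mock flies and 17.5, 42.0 and 92.3 RPKM after training, which overlapped (log2 change 1.16 ± 0.33 SE, limma adjusted p = 0.0474).

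The call of Mtkl passed in 8 of the 24 fits that left out 1 fly, with adjusted p of 0.0167 to 0.110 over the 24. Without both 1X mock replicate 4 and 1X trained replicate 1 it was 0.162. It was lost without any of 1X mock replicates 1 to 5, 1X trained replicates 1, 3, 4, 5 and 6, 3X mock replicates 2, 3, 4 and 6, and 3X trained replicates 1 and 5. With a replicate block its adjusted p was 0.0645. The number of the 149 called after 1X training was 7 without 3X trained replicate 2, beside 609 of 10526 genes tested.

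After 3X training rha fell, from 4.12, 6.46 and 14.6 RPKM in mock flies to 0.544, 1.21 and 3.85 RPKM (log2 change -1.71 ± 0.43 SE, limma adjusted p = 0.0407). Its reads overlap those of tobi, whose levels ran the same way. The call was lost without 3X mock replicates 1, 2, 3, 4 or 6 (adjusted p 0.0778, 0.0699, 0.0850, 0.0627 and 0.0703) or 3X trained replicates 2, 3, 4 or 5 (0.0699, 0.120, 0.0515 and 0.0856). With a replicate block it was 0.0604.

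The number of the 149 called after 3X training depended on single flies in both directions, as did the number over all genes. It was 9 without 3X trained replicate 6 (beside 613 of 10526 genes tested) and 7 without 1X trained replicate 1 (beside 578 of 10522). It was 2 without 1X mock replicate 4, 3X trained replicate 1 or 3X trained replicate 4 (beside 234, 417 and 281 of all genes). It was 0 without 3X mock replicates 1, 2, 3, 4 or 6 or 3X trained replicates 2, 3 or 5 (beside 26 to 171 of all genes).

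Between the mock groups CG11741 was higher after 3 rounds of handling, at 12.8, 20.7 and 36.5 RPKM in 3X mock against 1.19, 5.16 and 10.3 RPKM in 1X mock flies (log2 change 2.02 ± 0.52 SE, limma adjusted p = 0.0236). CG8665 was lower, at 17.2, 24.2 and 31.4 RPKM against 48.4, 57.2 and 76.2 RPKM (-1.29 ± 0.33, adjusted p = 0.0254). The noncoding RNA lncRNA:CR32553 was lower too, at 1.96, 18.6 and 24.4 RPKM against 31.2, 38.2 and 45.9 RPKM (-1.38 ± 0.33, adjusted p = 0.0140). How many of all genes do not overlap between the mock groups was not counted, so the ranges of these 3 are a description. In CG8665 the 1X trained flies lay higher still, at 100 to 158 RPKM, but the change after 1X training did not pass (limma adjusted p = 0.092). 1X and 3X mock flies differ in the number of sessions and in the time spent on them, which cannot be told apart.

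For lncRNA:CR32553 the 2 trained groups lay beside their mock groups, at 30.6 to 45.7 RPKM in 1X trained and 16.9 to 24.2 RPKM in 3X trained flies. It is among the 150 through 3X mock replicate 2 (1.96 RPKM), and its SD was 0.61 with and 0.20 without that fly. Without it the log2 change between the mock groups was -0.92 in place of -1.38 (limma adjusted p = 2.53e-05). The call passed whichever fly was left out.

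The call of CG11741 was lost without 1X mock replicates 2 or 3 or 3X mock replicates 5 or 6 (adjusted p 0.0610, 0.0646, 0.0651 and 0.0534). That of CG8665 was lost without 1X mock replicates 1 or 4 (0.0509 and 0.0613), without 3X mock replicates 2, 3 or 5 (0.0522, 0.0625 and 0.0529), with a replicate block (0.0529), and without 1X mock replicate 4 and 1X trained replicate 1 together (0.0567). The number called between the mock groups was 9 without 3X trained replicate 6, 8 without 3X mock replicate 2, 7 without 1X trained replicate 1, 6 without 3X trained replicate 2, 5 without 3X mock replicate 1 and 1 without 3X mock replicate 5.

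The difference between the 3X and the 1X training effect passed for none of the 149 in limma, beside 0.171% of all genes, and 3 of them (2.01%) had an unadjusted p below 0.05, beside 11.6% of all genes. It passed for 1 of them without 3X trained replicate 2, beside 106 of 10526 genes. Lower shares among genes chosen for their spread are, as above, not read as a result. Whether flies differ from each other to another extent after training was also compared. Absolute deviations from the group median were compared between the 12 trained and the 12 mock flies with limma, and 0 of the 149 passed, beside 0% of all genes. Unadjusted, 16 of the 149 (10.7%) and 637 of all genes (6.04%) had p below 0.05. The genes were ranked by such within-group deviations, so the higher share among the 149 is not read as a result either. In simulated data this comparison recovered only 6.5% of 200 genes whose SD was made 4 times as large in trained flies. With 12 single flies a side, a count of 0 therefore does not show that the spread was alike.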

How the data were processed

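The authors deposited RPKM values of 17559 genes with a column for each of 24 flies. The submitters' processing notes name bcl2fastq 2.18, TopHat2 2.0.13, edgeR 3.18.1 and dm6, whereas a methods section of the study names an older TopHat, dm3 and cuffdiff. RPKM keep depth where values are whole multiples of 1 read: within a tolerance of 0.02, 16284 of 16693 genes with an annotated length, and 143 of the 150 members, gave whole reads in every fly. Read totals cover counting error only.

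The scale was log2(RPKM + 1), which understates changes of low genes. limma 3.58.1 (R 4.3.3, lmFit, contrasts.fit, eBayes with trend, two-sided) was fitted with 4 group means to genes that reached 1 RPKM in 6 or more flies. In simulated data the test of means recovered 96.0% of 200 genes with a log2 change of 1. These were drawn from all 10547 tested genes and kept their own spread, which for most genes is far smaller than in the 150. The share therefore does not hold for the 150, whose changes are harder to detect. The test of spread recovered 6.5% of 200 genes with an SD 4 times as large. Scripts used Python 3.11.15, matplotlib 3.10.9, pandas 2.3.3, scipy 1.17.1 and numpy 2.4.6. Coordinates and overlaps come from Ensembl 115 (BDGP6, dm6), and 148 of the 150 IDs matched.

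The members and gene lists were chosen with earlier results of these data known. Named in full are the 12 members with the largest SD, the 3 most central of each module, the 3 with the largest SD of each list with at least 3 members, the 3 called members with the smallest p of each contrast, and the genes beside the rank threshold; others were named after their values were seen. The replicates are single flies, and whether they shared a culture is not given. Alternatives were other pseudocounts, filters, scalings, spread measures and distances, array weights, a replicate block, each fly left out, and, chosen after seeing the data, both 1X mock replicate 4 and 1X trained replicate 1 left out. No sequences were used here.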

Additional observations from a re-analysis of the deposited data

Results flagged for a closer look

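In 31 of 208 groups of 6 flies of the named genes, 1 fly lay far from the other 5, with a gap to its neighbour whose share of the group's range on the log2(RPKM + 1) scale was above Dixon's critical value. Chance flags about 1 in 20 independent groups of normal values, or 10.4 of 208. The genes were chosen for this same within-group spread, and several share reads or vary together. A count above that number is therefore not read as a result. The values below are this share of the range. Over all 150 genes 89 of 600 groups had such a fly, and in 27 it was 1X mock replicate 4 as the low fly and in 25 it was 1X trained replicate 1 as the low fly, which was the high fly in 3 more.

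Module 1 gave most of them. For the low 1X mock replicate 4 and the low 1X trained replicate 1 the shares were 0.935 and 0.815 in Obp56g, 0.922 and 0.905 in CG8329, 0.865 and 0.768 in CG9676, 0.840 and 0.681 in CG8343, 0.875 and 0.837 in CG11211, 0.922 and 0.869 in CG14277, and 0.908 and 0.694 in CG7829. Obp19b was low in 1X mock replicate 4 only, with 0.849. CG32523 had such a fly in every group, 1X mock replicate 4 (0.841), 1X trained replicate 1 (0.800), 3X mock replicate 2 (0.634) and 3X trained replicate 5 (0.875), all low.

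1X trained replicate 1 was low in Lsp2 (0.810), the overlapping asRNA:CR11538 (0.807) and CG3513 (0.791), and high in Vago (0.787). In module 6, 1X mock replicate 4 was the only low fly of its group, with 0.686 in CG13133, 0.688 in CG14142 and 0.638 in Naam. In Cyp6a17, 1X mock replicate 3 was the only fly of its group on the lower level (0.719). CG13428 was high in 1X trained replicate 4 (0.879), CG9119 was high in 3X mock replicate 2 (0.735), lncRNA:CR32553 was low in 3X mock replicate 2 (0.865), and Amy-p was low in 3X mock replicate 5 (0.674).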

How the results depend on the processing

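Left out 1 at a time, the flies kept 130 to 150 of the 150 genes and 60 to 82 genes in modules. Ranking by the median absolute deviation kept 90 of the 150. Leaving out both 1X mock replicate 4 and 1X trained replicate 1, an alternative chosen after seeing the data, kept 115, with 48 instead of 75 genes in modules. It called 5, 7 and 6 of them after 1X, after 3X and between the mock groups, beside 382, 584 and 517 of 10511 genes tested. Array weights called 8 after 1X and 3 after 3X training, beside 894 and 382 of 10547 genes. A pseudocount of 0.1 called 0 after 3X training, and so did testing without a filter, beside 238 of 10547 and 109 of 16992 genes. With 1 fly left out the calls were 3 to 7 after 1X training, 0 to 9 after 3X training, 1 to 9 between the mock groups, 0 to 1 for the difference between the training effects and 0 to 0 for the spread. No value changed its direction. The causes were not tested, apart from the larger number of genes tested without a filter.

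The replicate numbers are not stated to pair the flies. The deviations of 36 same-numbered pairs had a median r of -0.01 (-0.24 to 0.15, 4 over 0.1). Those of 180 pairs with other numbers had a median r of 0.005 (-0.27 to 0.31, 35 over 0.1). Such values cannot exclude a day or batch shared by some flies. With a replicate block 4, 1, 3, 0 and 0 of the 149 genes were called after 1X, after 3X, between the mock groups, for the difference and for the spread. Over all genes the calls were 416, 198, 410, 8 and 0 of 10547. Mtkl, rha and CG8665 were no longer among those called (adjusted p 0.0645, 0.0604 and 0.0529 in limma).

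Over all genes the calls after 1X training were 521, 894 with array weights and 345 without a filter. After 3X training they were 239, 382 with array weights, 109 without a filter and 584 without both flies. With 1 fly left out they ran from 26 (without 3X trained replicate 3) to 613 (without 3X trained replicate 6), so the background of 2.27% rests on single flies. Between the mock groups they were 458 and 728 with array weights. With 1 fly left out the calls were 302 to 609 after 1X training, 331 to 600 between the mock groups and 3 to 107 for the difference. For the difference they were 18, 120 with array weights, 9 without a filter, 8 with a block and 86 without both flies, and for the spread 0, 5 without a filter and 15 with deviations from the group mean.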
